A study of Mus musculus with 6 samples.

Results

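The platelet-derived growth factor (PDGF) and vascular endothelial growth factor (VEGF) genes taken as members here were 7 ligand genes (Pdgfa, Pdgfb, Pdgfc, Pdgfd, Vegfa, Vegfb and Vegfc) and 3 receptor genes (Pdgfra, Pdgfrb and Flt1). They were chosen by name, as probe sets that the platform's annotation pairs with exactly 1 symbol. Each of the 10 genes had 1 such probe set, and they are 10 of 10261 genes named in this way. RNA was taken from primary keratinocytes of newborn mice at postnatal day 0, isolated from skin, and from mouse embryonic fibroblasts (MEFs) of E13.5 embryos, without treatment. The RNA was read on MoGene-1_0-st arrays from Affymetrix. Of these, 3 carry the label keratinocytes and 3 the label MEF, each numbered as a biological replicate, and they are called keratinocyte-labelled and MEF-labelled arrays. The MEF protocol dissects several embryos together after removal of the head and inner organs. C57BL/6J is named for the MEFs in the methods, whereas the protocol filed with the samples asks for DR-4. No strain is stated for the keratinocytes. Keratinocytes were grown in CnT-07, an epidermal keratinocyte medium, and MEFs in DMEM with fetal bovine serum, so that cell type, age and medium cannot be told apart. Nothing in these sources says whether the replicates of a group came from separate litters, and p-values therefore measure only the spread between these arrays.

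Values are log2 signals after RMA, a procedure that corrects background, equalises the arrays and summarises the probes of a set. Over all probe sets deposited, array medians still differed by label. They were 6.16 to 6.22 on the keratinocyte-labelled and 6.25 to 6.31 on the MEF-labelled arrays. Differences are given as keratinocyte-labelled arrays minus MEF-labelled arrays, from a limma fit over all named probe sets, and passed at an adjusted p (Benjamini-Hochberg) under 0.05. The background of an array was set by 10 probe sets of olfactory receptors, at their 95th percentile, and lay between 5.49 and 5.92 on the keratinocyte-labelled arrays and between 6.05 and 6.58 on the MEF-labelled ones. Where every array of a group was at or under it, a fold is given as a lower bound, and a gene at that level need not be silent. On MEF-labelled replicates 1 and 3 the background, 6.53 and 6.58, was above the median signal of all probe sets, 6.25 and 6.31. A gene not above background there can thus have a signal near that median. The 10 olfactory receptor probe sets are those with 1 symbol in the deposited table. How the probe sets of that table were chosen is not stated, so this background may not be that of the whole array. The labels were checked with Cdh1, the gene of the epithelial adhesion protein E-cadherin, and Vim, that of the mesenchymal filament protein vimentin. Cdh1 had signals of 3.33, 2.16 and 3.26 on the keratinocyte-labelled arrays and of 8.62, 8.59 and 8.73 on the MEF-labelled ones. Vim had signals of 11.93, 11.97 and 12.03 on the former and of 3.81, 3.92 and 3.78 on the latter. Both genes ran against the cell type labels, as did 10 of 10 measured keratinocyte markers, all higher on the MEF-labelled arrays, and 10 of 10 measured fibroblast markers, all higher on the keratinocyte-labelled ones. The arrays are therefore named by their labels throughout, and no direction below is a statement about keratinocytes or fibroblasts.

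PDGFs are dimers of A, B, C or D chains that bind the receptor tyrosine kinases encoded by Pdgfra and Pdgfrb. The alpha receptor binds A, B and C chains, the beta receptor binds mainly B and D chains, and C and D chains are secreted in a latent form that proteases must cut. In skin, the epidermis is a known source of PDGF-A, and fibroblasts of the dermis carry the alpha receptor. Pericytes are a known site of the beta receptor, though not its only one. VEGF-A is the main growth factor of blood vessels and is made in skin by keratinocytes and fibroblasts, VEGF-C acts mainly on lymphatic vessels, and VEGF-B binds VEGF receptor 1, the product of Flt1. That receptor holds VEGF-A tightly but signals weakly, and its soluble form acts as a trap.

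The stretch of 250 bases before the annotated start of 5 of these genes is shown next, because the members that follow differ in direction and size: Pdgfra, Pdgfc and Flt1 stood well apart between the groups, Vegfa less so, and Pdgfa ran the other way. The sequences are those of RefSeq on GRCm38.p6, 5′ to 3′ on the strand of the gene, and capitals mark GC boxes (GGGCGG, or CCGCCC on the other strand) and TATA boxes (TATAAA, or TTTATA on the other strand). For Pdgfa and Vegfa, which have more than 1 start in that table, the start farthest upstream is shown.
Pdgfra, chr5:75152001-75152250, plus strand: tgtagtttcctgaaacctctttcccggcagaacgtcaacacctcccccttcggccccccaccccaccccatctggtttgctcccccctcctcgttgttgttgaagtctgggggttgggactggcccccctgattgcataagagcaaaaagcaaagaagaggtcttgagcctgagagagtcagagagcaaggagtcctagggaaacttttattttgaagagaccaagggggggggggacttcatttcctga
Pdgfc, chr3:81036166-81036415, plus strand: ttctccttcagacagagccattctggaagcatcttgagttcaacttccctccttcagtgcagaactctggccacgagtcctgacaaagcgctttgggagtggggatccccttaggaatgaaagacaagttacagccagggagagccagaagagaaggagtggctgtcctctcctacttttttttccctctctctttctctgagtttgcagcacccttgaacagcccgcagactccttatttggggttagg
Flt1, chr5:147726012-147726261, minus strand: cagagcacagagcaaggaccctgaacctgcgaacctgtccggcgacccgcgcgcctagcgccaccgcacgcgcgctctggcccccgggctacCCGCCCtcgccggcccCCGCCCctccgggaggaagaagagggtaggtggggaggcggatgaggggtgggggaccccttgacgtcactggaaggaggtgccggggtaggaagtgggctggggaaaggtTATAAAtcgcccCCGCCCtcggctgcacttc
Vegfa, chr17:46032378-46032627, minus strand: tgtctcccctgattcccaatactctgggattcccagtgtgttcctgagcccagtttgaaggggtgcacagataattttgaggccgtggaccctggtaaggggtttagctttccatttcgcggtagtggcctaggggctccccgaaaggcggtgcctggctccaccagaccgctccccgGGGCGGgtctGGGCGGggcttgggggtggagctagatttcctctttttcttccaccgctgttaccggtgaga
Pdgfa, chr5:138994945-138995194, minus strand: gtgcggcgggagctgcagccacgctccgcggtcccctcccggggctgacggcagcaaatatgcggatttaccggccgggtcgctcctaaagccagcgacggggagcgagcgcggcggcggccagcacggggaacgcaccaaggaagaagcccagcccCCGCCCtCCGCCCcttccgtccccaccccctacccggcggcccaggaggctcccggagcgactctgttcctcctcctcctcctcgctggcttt
Of the 10 genes, 8 had a promoter in that table, which did not include Pdgfb and Pdgfrb. A GC box, a binding sequence of Sp1-type factors, was found for 5 of the 8 (Pdgfa, Vegfa, Vegfb, Vegfc and Flt1), beside 32.7% of all 32851 promoter windows of this length. Such counts are of genes, where 1 window with the motif sufficed, and such shares are of windows. Pdgfa and Vegfa had 2 windows each, all with a GC box. A TATA box was found for Flt1 and Pdgfd, 2 of the 8, beside 12.4% of all windows. The windows of Pdgfra and Pdgfc held neither, and their GC content was 54.4% and 50.8%, beside a median of 52.4% over all windows, whereas those of Flt1 and Pdgfa shown here had 70.4% and 72.4%. The core of the hypoxia response element (ACGTG, or CACGT on the other strand), which 16.6% of all windows hold, occurred in 1 window of 1 member, the second start of Vegfa. That window lies downstream of the Vegfa start shown here, and so not before the gene. The Vegfa window shown did not hold the core. None of the 3 motifs holds another, and a match in these letters is a description of the sequence and no evidence that a factor binds it.

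All 3 receptor members were higher on the keratinocyte-labelled arrays, each by far more than the spread between arrays, and none was above background on the MEF-labelled arrays. Kdr, the gene of VEGF receptor 2, is not among these 3 and went the other way, as given below. Pdgfra, which encodes PDGF receptor alpha, had log2 signals of 8.74, 8.67 and 8.54 on the keratinocyte-labelled arrays and of 2.87, 2.89 and 1.91 on the MEF-labelled ones. The groups were far apart, with the lowest array of the former 5.65 above the highest of the latter, and replicate 3 of the latter lay below the other two. The difference was 6.09 ± 0.24 (log2, SE, n = 3 per group) and the level was at least 4.80-fold higher (limma adjusted p = 1.20e-07). Pdgfrb, which encodes PDGF receptor beta, had signals of 9.89, 10.13 and 9.86 on the keratinocyte-labelled arrays and of 2.45, 2.27 and 2.63 on the MEF-labelled ones. Its 3 arrays lay close together in both groups, and the gap between the groups, 7.23, was the widest of the 10 genes. The difference of 7.51 ± 0.12 ranked 28th in size among the 10261 genes, and the level was at least 11.9-fold higher (limma adjusted p = 2.50e-09). In these bulk samples, fewer cells that express a gene and less of its RNA per cell cannot be told apart.

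Flt1, the gene of VEGF receptor 1 and best known from endothelial cells and monocytes, had signals of 7.03, 7.12 and 7.04 on the keratinocyte-labelled arrays and of 3.52, 3.19 and 3.93 on the MEF-labelled ones. Its keratinocyte-labelled arrays were above background and differed among themselves by only 0.08, the smallest range of the 10 genes in that group. The difference was 3.52 ± 0.17 (log2, SE, n = 3 per group), and the level at least 1.60-fold higher (limma adjusted p = 4.10e-07). The lower bounds rest on the background level: with the 75th percentile of these olfactory genes in its place they were 12.0 for Pdgfra, 29.8 for Pdgfrb and 4.00 for Flt1. For each of the 10 ligand and receptor genes all arrays of one label had higher values than all arrays of the other label (two-sided exact permutation test, p = 0.1, which is as low as groups of 3 can give). Groups did not overlap for 78.4% of all genes.

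**Figure D1:**
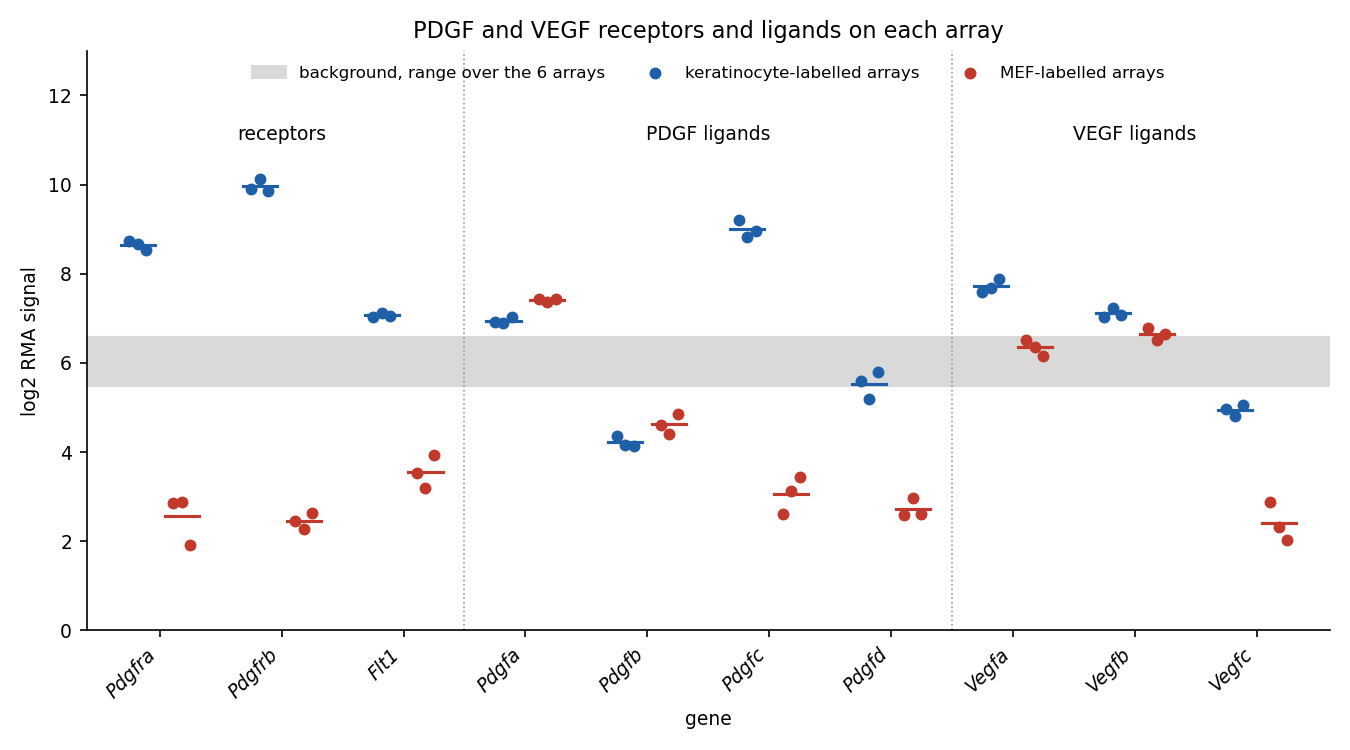
Log2 RMA signal (vertical axis) of the 3 receptor genes, 4 PDGF ligands and 3 VEGF ligands (horizontal axis), with a point for each of 3 keratinocyte-labelled (blue) and 3 MEF-labelled (red) arrays, lines for group means and a grey band for the background, 5.49 to 6.58 over the 6 arrays. The receptors and Pdgfc lie above the band on the keratinocyte-labelled arrays and below it on the others, Pdgfa lies above it everywhere and is higher on the MEF-labelled arrays, and Pdgfb and Vegfc lie below it on all arrays.

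The 4 PDGF ligand genes split by direction. Pdgfc and Pdgfd, the genes of the latent C and D chains, were higher on the keratinocyte-labelled arrays, and Pdgfa and Pdgfb, the genes of the classical A and B chains, on the MEF-labelled ones. Pdgfc had log2 signals of 9.21, 8.83 and 8.96 on the keratinocyte-labelled arrays and of 2.61, 3.13 and 3.45 on the MEF-labelled ones. All arrays of the former group were above background, none of the latter was, and the nearest arrays of the groups were 5.38 apart. The difference was 5.94 ± 0.21 (log2, SE, n = 3 per group), with a level at least 6.11-fold higher (limma adjusted p = 5.27e-08), or at least 15.3-fold with the lower background level. Pdgfd had signals of 5.60, 5.19 and 5.79 on the keratinocyte-labelled arrays and of 2.58, 2.96 and 2.62 on the MEF-labelled ones. Only replicate 3 of the former exceeded its background, so that no fold is given although the groups lay 2.23 apart. Its difference was 2.80 ± 0.17 (limma adjusted p = 1.52e-06).

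Pdgfa, the gene of the A chain, had signals of 6.92, 6.90 and 7.03 on the keratinocyte-labelled arrays and of 7.42, 7.36 and 7.43 on the MEF-labelled ones. It was above background on all 6 arrays, and the gap between the groups, 0.33, was wider than the range within either of them. The level was 1.37-fold higher on the MEF-labelled arrays, a difference of -0.45 ± 0.09 (log2, SE, n = 3 per group; 95% confidence interval -0.65 to -0.26; limma adjusted p = 1.54e-03). Pdgfb, the gene of the B chain, had signals of 4.36, 4.15 and 4.14 on the keratinocyte-labelled arrays and of 4.60, 4.41 and 4.86 on the MEF-labelled ones. No array was above background, and the groups were separated by only 0.05. The difference of -0.41 ± 0.13 passed (limma adjusted p = 0.0224), but not with median centring of the arrays (-0.31, adjusted p = 0.0609), with the methods' t-test, which they give for other assays and not for arrays (adjusted p = 0.0733), or without keratinocyte-labelled replicate 2 or 3 (adjusted p = 0.0617 and 0.0661) or MEF-labelled replicate 3 (-0.29, adjusted p = 0.0802).

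The 3 VEGF ligand genes were all higher on the keratinocyte-labelled arrays, by unequal amounts. Vegfa, the gene of the main angiogenic ligand, had log2 signals of 7.60, 7.68 and 7.88 on the keratinocyte-labelled arrays and of 6.52, 6.36 and 6.16 on the MEF-labelled ones. Every array of the former group was above background, as was replicate 2 of the latter, and the groups were 1.08 apart. The level was 2.59-fold higher (difference 1.37 ± 0.12, log2, SE, n = 3 per group; limma adjusted p = 1.75e-05). Vegfb had signals of 7.02, 7.23 and 7.08 on the keratinocyte-labelled arrays and of 6.78, 6.50 and 6.64 on the MEF-labelled ones. All 6 arrays were above background and the gap between the groups was 0.24, close to the range within each of them. It was 1.38-fold higher (difference 0.47 ± 0.11; 95% confidence interval 0.22 to 0.71; limma adjusted p = 4.23e-03). Vegfc, the gene of the lymphatic growth factor, had signals of 4.96, 4.80 and 5.06 on the keratinocyte-labelled arrays and of 2.89, 2.32 and 2.03 on the MEF-labelled ones. No array was above background, so that no fold is given, while the difference was 2.52 ± 0.20 (limma adjusted p = 8.53e-06).

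Over the 10 genes, 8 were higher on the keratinocyte-labelled arrays and 2 on the MEF-labelled ones, beside 32.9% and 41.7% of all genes, and 10 passed in either direction, beside 74.5% of all genes. A difference of at least 2-fold as measured was found for 7 genes, all higher on the keratinocyte-labelled arrays, beside 14.1% of all genes in that direction and 14.4% in the other. The median difference of the 10 genes was 2.66, and that of all genes -0.12. In signed order, from the highest to the lowest, the differences ran from Pdgfrb, Pdgfra, Pdgfc, Flt1, Pdgfd, Vegfc and Vegfa to Vegfb, Pdgfb and Pdgfa. The 95% confidence intervals overlapped between Pdgfra (5.53 to 6.65) and Pdgfc (5.46 to 6.41), between Flt1 (3.12 to 3.91) and Pdgfd (2.41 to 3.20), between Pdgfd and Vegfc (2.06 to 2.99) and between Pdgfb (-0.71 to -0.10) and Pdgfa, and these neighbours were not tested against each other. Signals on the MEF-labelled arrays were at or under background for 7 of the 10 genes, so the order of the larger differences is an order of measured values and not of folds. The MEF-labelled arrays also had the larger SD for 8 of the 10 genes, and the share of all genes was not counted. The SD was 0.56 against 0.10 for Pdgfra and 0.37 against 0.05 for Flt1, both under background there. For Pdgfa, above background on all arrays, it was smaller, 0.04 against 0.07. Over all named probe sets the MEF-labelled arrays were not the less alike (Pearson r 0.991 to 0.994 among them, 0.985 to 0.989 among the keratinocyte-labelled ones).

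**Figure D2:**
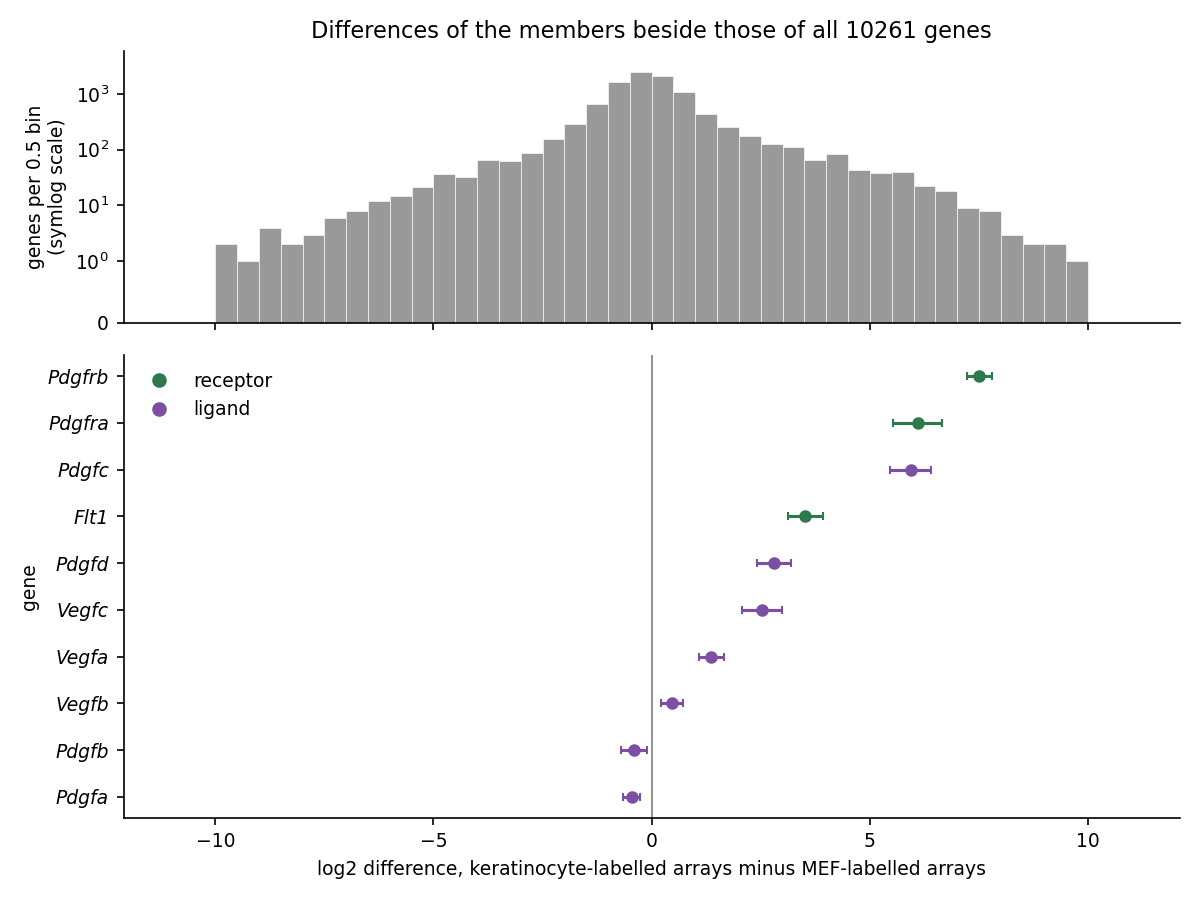
Top, number of genes (vertical axis, symlog scale) by log2 difference, keratinocyte-labelled arrays minus MEF-labelled arrays (horizontal axis), over 10261 genes in bins of 0.5. Bottom, the differences of the 3 receptors (green) and 7 ligands (purple) on the same axis, with 95% confidence intervals from limma: they run from -0.45 for Pdgfa to 7.51 for Pdgfrb, and 8 of 10 lie to the right of 0.

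The genes whose 6 array values, each centred on its own mean, lay closest to those of 3 members are named as a description only, since over 6 arrays in 2 clusters such a distance mostly matches the difference between the clusters. Closest to Pdgfrb were Igf2 (Euclidean distance 0.33, log2 scale), Tgfb3 (0.43) and Tagln (0.47), with differences of 7.64, 7.22 and 7.62. Pdgfra was closest to Olfml3 (0.43), Pcdh19 (0.54) and Lrrc15 (0.55), with differences of 5.98, 6.06 and 5.89. Vegfa was closest to Chpf2 (0.15), Fhl1 (0.16) and Ptms (0.17), with differences of 1.45, 1.36 and 1.45.

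Of 6 further VEGF family genes and co-receptors, 4 had a value here, Nrp1, Nrp2, Pgf and Kdr. The neuropilins, co-receptors that present VEGF and semaphorins to their receptors, were both higher on the keratinocyte-labelled arrays. Nrp1 had log2 signals of 8.65, 8.44 and 8.46 there and of 6.46, 6.78 and 6.58 on the MEF-labelled arrays, a 3.77-fold difference (limma adjusted p = 1.34e-06), although only replicate 2 of the latter exceeded its background. Nrp2 had signals of 7.99, 7.84 and 7.71 and of 5.14, 5.37 and 5.42, at least 2.75-fold apart (limma adjusted p = 2.58e-07). For both genes the groups lay clearly apart, in the direction of Flt1 and Vegfa. Kdr, the gene of VEGF receptor 2 and the main signalling receptor of VEGF-A, went the other way, with 3.62, 3.52 and 3.31 on the keratinocyte-labelled arrays and 5.06, 5.00 and 4.80 on the MEF-labelled ones (limma adjusted p = 7.69e-06). Pgf, the gene of placental growth factor, a ligand of VEGF receptor 1, had 3.80, 4.19 and 4.06 and 2.18, 2.22 and 2.47 (limma adjusted p = 5.86e-06). Neither Kdr nor Pgf was above background on any array.

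Among 11 measured genes of ligand processing and matrix retention, 8 were higher on the keratinocyte-labelled arrays, 2 were higher on the MEF-labelled ones and Ccbe1 did not pass, with a median difference of 1.24. Over all genes 32.9% and 41.7% were higher in these directions and 74.5% passed. The proteases that activate the C and D chains were divided between the groups. Plat, the gene of tissue plasminogen activator, which cuts PDGF-C, had log2 signals of 7.84, 7.75 and 7.96 on the keratinocyte-labelled arrays and of 4.02, 3.51 and 3.30 on the MEF-labelled ones, at least 2.76-fold apart (limma adjusted p = 1.45e-07). Plau, the gene of urokinase, which cuts PDGF-D, was 1.31-fold higher on the MEF-labelled arrays, with 8.31 ± 0.08 against 7.92 ± 0.07 (SD, n = 3; limma adjusted p = 4.43e-03). St14, the gene of matriptase, a membrane protease of epithelia that can also cut PDGF-D, was at least 8.29-fold higher on the MEF-labelled arrays, with 8.75 ± 0.10 against 3.23 ± 0.44 (limma adjusted p = 6.53e-08). Plat thus was higher on the same arrays as Pdgfc, and Plau and St14 on the arrays where Pdgfd was lower. The gelatinase gene Mmp2 was 10.6-fold higher on the keratinocyte-labelled arrays (limma adjusted p = 9.73e-09), and Pcsk6, the gene of a furin-like convertase, stood at 6.01 ± 0.26 against 3.90 ± 0.16 (limma adjusted p = 3.62e-06). Pcsk6 exceeded background on only 2 arrays, both keratinocyte-labelled. Furin itself, which cuts the A and B chains, and Sparc, a matrix protein that binds PDGF-B, are named for their roles and were added after their values were seen. Furin was 1.57-fold higher and Sparc 2.39-fold higher on the keratinocyte-labelled arrays (limma adjusted p = 1.59e-04 and 2.54e-06).

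**Figure D3:**
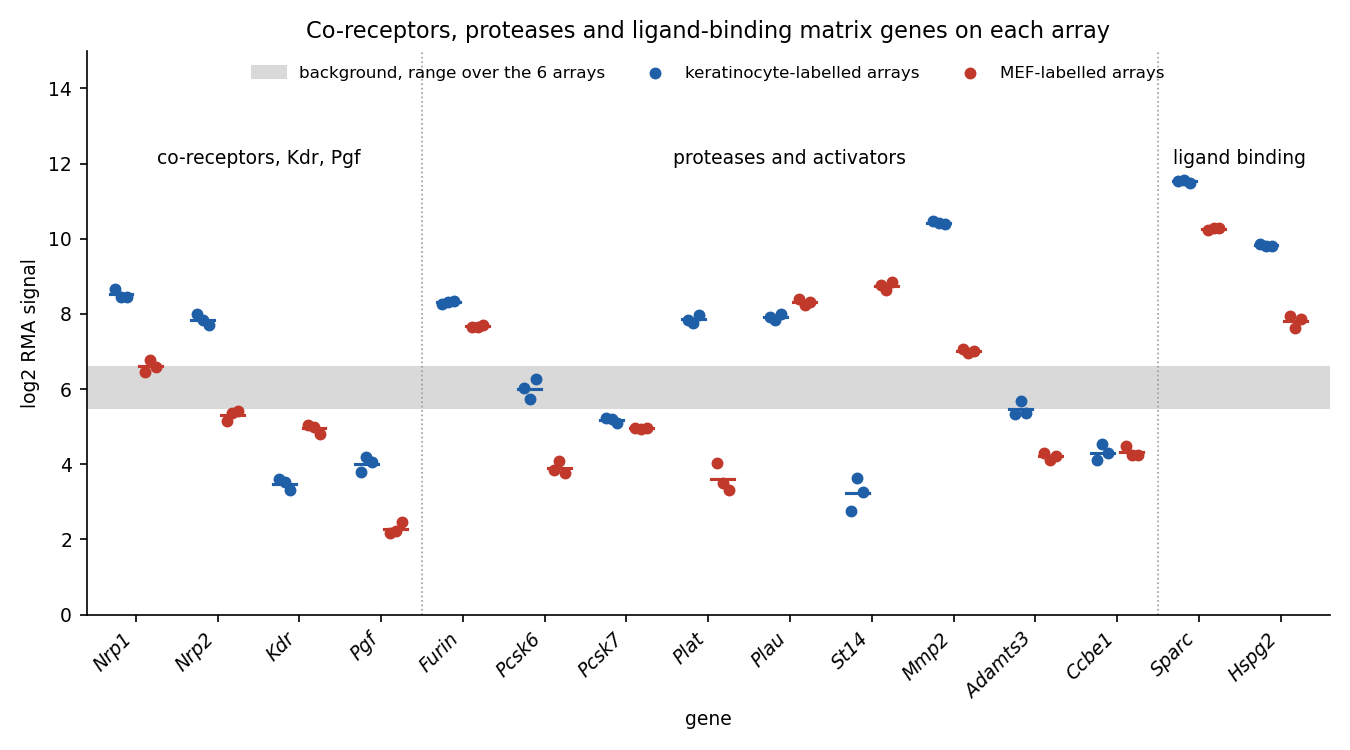
Log2 RMA signal (vertical axis) of co-receptors and other VEGF family genes, ligand-cutting proteases with their activators, and ligand-binding matrix genes (horizontal axis), with a point for each of 3 keratinocyte-labelled (blue) and 3 MEF-labelled (red) arrays, lines for group means and a grey band for the background, 5.49 to 6.58 over the 6 arrays. Nrp1, Nrp2, Plat and Mmp2 are higher on the keratinocyte-labelled arrays, St14 and Plau on the MEF-labelled ones, and Kdr, Pgf and Ccbe1 lie below the band.

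Genes that carry or switch off the signal inside the cell passed about as often as genes at large. Of 31 measured adaptors, effectors and phosphatases of these receptors, 11 were higher on the keratinocyte-labelled arrays, 11 were higher on the MEF-labelled ones and 9 did not pass, beside 32.9% and 41.7% of all genes higher and 74.5% past the threshold, with a median difference of 0.13. The Src family kinase gene Fyn differed most, with log2 signals of 8.03, 7.91 and 8.13 on the keratinocyte-labelled arrays and of 3.51, 4.24 and 3.61 on the MEF-labelled ones, at least 3.11-fold apart (limma adjusted p = 1.95e-07). Pik3r1, the regulatory subunit through which PI3-kinase docks on PDGF receptors, was 2.89-fold higher on the keratinocyte-labelled arrays (limma adjusted p = 3.28e-06), with 1 of the 3 MEF-labelled arrays above background. Its catalytic partner gene Pik3cb was 3.13-fold higher on the MEF-labelled arrays (limma adjusted p = 7.82e-07). Ptprj, the gene of a phosphatase that acts on PDGF and VEGF receptors, was at least 2.04-fold higher there as well (limma adjusted p = 4.10e-06).

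Vegfa is a classical target of the hypoxia-inducible factors, and oxygen sensing genes were therefore set beside it. Of 17 measured genes, 9 were higher on the keratinocyte-labelled arrays, 3 were higher on the MEF-labelled ones and 5 did not pass. Over all genes 32.9% and 41.7% were higher in these directions and 74.5% passed. The median difference of the 17 was 0.40 (that of all genes was -0.12). P4ha1, the gene of a collagen prolyl hydroxylase subunit, was at least 10.0-fold higher on the keratinocyte-labelled arrays (9.71 ± 0.03 against 6.00 ± 0.11, SD, n = 3; limma adjusted p = 1.01e-08). The mitophagy gene Bnip3 was at least 3.42-fold higher there (limma adjusted p = 2.41e-08) and Adm, the gene of the vasodilator peptide adrenomedullin, at least 2.45-fold (limma adjusted p = 4.87e-06). The 3 genes higher on the MEF-labelled arrays ran opposite to Vegfa. Pfkfb3, a regulator of glycolysis, was 5.07-fold higher on the MEF-labelled arrays (limma adjusted p = 1.83e-07), Egln3, the gene of an oxygen-sensing prolyl hydroxylase, was 3.42-fold higher (limma adjusted p = 4.69e-07; above background on 2 of the 3 keratinocyte-labelled arrays), and Hif1an, the gene of the asparaginyl hydroxylase of the pathway, was 1.72-fold higher (limma adjusted p = 5.06e-05). Hif1a, the factor itself, was added after its value was seen, and was 1.64-fold higher on the keratinocyte-labelled arrays (limma adjusted p = 1.37e-04).

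Markers of the cells in which these receptors are best known were set beside the receptor values. Of 7 measured pericyte and smooth muscle markers, 5 were higher on the keratinocyte-labelled arrays, as Pdgfrb was, and 2 on the MEF-labelled ones. Over all genes 32.9% and 41.7% were higher in these directions and 74.5% passed. The summed linear signal of the 7 markers ran from 5711 to 5991 on the keratinocyte-labelled and from 1203 to 1286 on the MEF-labelled arrays. Acta2 made up most of it on the keratinocyte-labelled arrays only. The other 6 summed to between 1110.3 and 1294 on the keratinocyte-labelled and to between 1032 and 1101 on the MEF-labelled arrays. Cspg4, the gene of the NG2 proteoglycan, was at least 1.69-fold higher on the keratinocyte-labelled arrays (limma adjusted p = 1.15e-07), Acta2, the gene of smooth muscle actin, which cultured fibroblasts also express, was 24.9-fold higher (limma adjusted p = 4.24e-09), and Cnn1, a calponin, at least 5.07-fold (limma adjusted p = 3.34e-08). The muscle filament gene Des stood at 5.92 ± 0.35 against 2.05 ± 0.51 (SD, n = 3; limma adjusted p = 3.09e-06). Des exceeded background on only 1 array, a keratinocyte-labelled one. Mcam and Notch3, genes of vascular mural cells, were 2.38-fold and 1.80-fold higher on the MEF-labelled arrays (limma adjusted p = 4.49e-06 and 1.48e-04). The part of such cells in the Pdgfrb result was not tested.

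Of 17 endothelial markers 5 had a value here, and defining ones such as Pecam1, Cdh5 and Tek were not analysed here. Of the 5, 2 were higher on the keratinocyte-labelled arrays, 2 on the MEF-labelled ones and Sox18 did not pass. Over all genes 32.9% and 41.7% were higher in these directions and 74.5% passed. Of the 5 markers, 4 did not exceed background on any array. The summed linear signal of the 5 ran from 160 to 164 on the keratinocyte-labelled arrays and from 111 to 122 on the MEF-labelled ones. Eng, the gene of endoglin, which mesenchymal cells also express, was above background on all keratinocyte-labelled arrays, with 6.09 ± 0.13 against 3.21 ± 0.21 (SD, n = 3; limma adjusted p = 2.36e-07), and the endothelial factor gene Erg stood at 5.25 ± 0.12 against 2.80 ± 0.22 (limma adjusted p = 6.74e-07). Kdr, as given above, and Egfl7 were higher on the MEF-labelled arrays, the latter at 5.74 ± 0.16 against 4.81 ± 0.11 (limma adjusted p = 1.13e-04). Of 9 macrophage markers 2 had a value: Cd68 was at least 7.28-fold higher on the MEF-labelled arrays (limma adjusted p = 1.39e-07) and Lyz2 stood at 5.23 ± 0.47 against 1.49 ± 0.89, higher on the keratinocyte-labelled ones (limma adjusted p = 6.65e-05). Lyz2 exceeded background on only 1 array, a keratinocyte-labelled one. The part of endothelial cells or macrophages in the Flt1 and Pdgfb results was not tested.

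**Figure D4:**
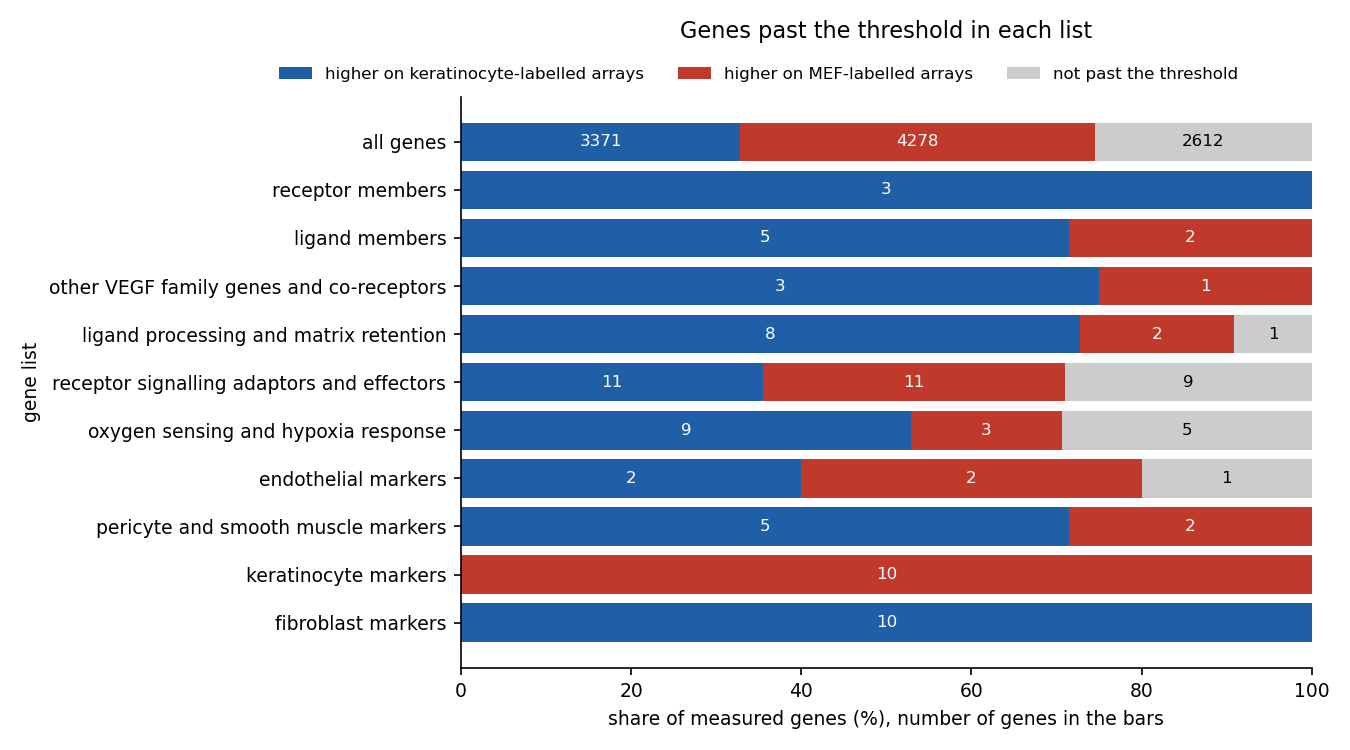
Share of the measured genes (horizontal axis, percent) that were higher on the keratinocyte-labelled arrays (blue), higher on the MEF-labelled ones (red) or not past the threshold (grey) in each gene list (vertical axis), with numbers of genes in the bars. All 3 receptors and 5 of 7 ligands are blue, signalling genes are split 11 to 11, and keratinocyte and fibroblast markers, 10 each, lie against the array labels.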

How the data were processed

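The authors deposited 1 table of log2 values, with 15648 probe sets and a column for each of 6 Affymetrix MoGene-1_0-st arrays. How these probe sets were chosen is not stated, so shares of all genes are shares of the genes named in this table. The methods state RMA normalization with oligo, version 1.46.0 in the submitters' processing notes. The range of the values was taken as the sign that they are this output. RMA shrinks differences of dim genes and would hide a change in total RNA.

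Gene names came from the platform annotation, in which 11288 probe sets had 1 symbol, 645 several and 3715 none. Of the 11288, 11274 were matched by gene identifier to RefSeq of GRCm38.p6 for current symbols. With the brightest probe set standing for each gene, 10261 genes were left. Differences between the 3 keratinocyte-labelled and the 3 MEF-labelled arrays were tested with limma 3.58.1 (lmFit and eBayes, R 4.3.3) over these 11288 probe sets, with Benjamini-Hochberg adjustment. A run on simulated data changed only a small part of the probe sets, unlike these data, and so does not measure the error here. Promoter windows were the 250 bases before each start in RefSeq. Python 3.11.15 with matplotlib 3.10.9 was used for figures.

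Named are all members, Cdh1, Vim, the further VEGF family genes, up to 4 genes of each other list with the largest differences past the threshold, those past it against most of their list, and the 3 genes closest in pattern to Pdgfra, Pdgfrb and Vegfa. For the keratinocyte and fibroblast lists only Cdh1, Vim and the counts are given. Related receptor kinases (5 genes) had 0 values here. The members and lists were chosen with earlier results of these data known. Alternatives were quantile normalization, median centring, leaving out each array, a block for the replicate number, 2 filters on dim probe sets, robust variances with an intensity trend, the methods' t-test (stated there for other assays, with limma for the arrays), a gene's mean over its probe sets, a fit over the whole table, a minimum log2 difference of 1 and a lower background percentile.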

Additional observations from a re-analysis of the deposited data

How the results depend on the processing

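All 3 receptors were higher on the keratinocyte-labelled arrays, past the threshold, under each of the 16 alternatives. Not all of these could have weakened them. The filter on background keeps Pdgfra, Pdgfrb, Flt1 and Pdgfc through the keratinocyte-labelled arrays alone, where they are high. A mean over probe sets leaves each member's difference as it was, since each has 1 probe set. The 5 ligands higher on these arrays also passed under each alternative that tested them, except Vegfb with a minimum log2 difference of 1, and were 3 of 4 tested ligands with either filter on dim probe sets, which left out Pdgfb, Pdgfd and Vegfc. The 2 ligands higher on the MEF-labelled arrays became 1, Pdgfa, with median centring, with the methods' t-test and with either filter, and 1 to 2 with arrays left out in turn. A minimum log2 difference of 1 left 0, as both measured differences are smaller, so that setting is no test of them (limma, 2 at an unadjusted p under 0.05). By the methods' t-test, 9 of the 10 genes were under its threshold unadjusted and 9 after Benjamini-Hochberg adjustment. No difference changed sign. Pdgfa ranged from -0.49 to -0.34 and Vegfb from 0.40 to 0.58 over the alternatives. With the lower background percentile Pdgfd had a bound, at least 1.38-fold.

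With the replicate block, 5 ligands and 3 receptors were higher on the keratinocyte-labelled arrays and 2 ligands on the MEF-labelled ones, as without it, and no member changed its call. Over all genes the block gave 3117 and 3942 calls, against 3371 and 4278. Same-numbered arrays did not deviate together (r of deviations -0.23, -0.21 and -0.03 across probe sets, which are not independent), so the numbers were not taken to pair the samples. Median centring gave 3801 and 3733 calls. The number of arrays and a background set by 10 probe sets limit the precision, least for genes bright in both groups such as Pdgfa.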
